A study of Mus musculus with 66 samples.

Results

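Cell cycle genes were examined in the lungs of wild-type and Nrf2-null mice from the embryo to the adult. The set held 42 genes listed by name, and a gene was measured where the platform annotation gave it a probe set of its own. The probe set with the highest mean over the 66 arrays stood for the gene. In this way 41 of the 42 genes were measured, among 18193 genes on the array, and Ccnb1, the gene of cyclin B1, was the member with no such probe set. Of the 41, 15 act in DNA replication, 18 in mitosis, 4 are cyclins of G1 and of entry into S phase (Ccnd1, Ccnd2, Ccne1 and Ccne2), and 2 are transcription factors (E2f1 and Foxm1). The others were Ccna2, the cyclin of S phase and G2, and Mki67, which encodes the nuclear antigen Ki-67 used to mark dividing cells.

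RNA from homogenized lung was hybridised to 1 Affymetrix array per sample, in 22 groups of 3. The genotypes were Nrf2+/+ (wild type) and Nrf2-/- (knockout). Fetal lungs came from E13.5, E15.5, E17.5 or E18.5, counted in embryonic days. Postnatal lungs came from PND0 (the day of birth), each of the following days up to PND4, and then PND14 and PND42. Dams were time mated, and dams and postnatal mice of both genotypes ate AIN-76A feed. Each sample was 1 lung, except at E13.5, where 2 to 3 lungs were combined. The sources used here do not say how the null allele was made, or the strain and sex of the mice. Nrf2, encoded by Nfe2l2, drives transcription of genes for antioxidant defence and detoxification, and the design asks how its loss alters gene expression over lung development.

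In a dividing cell, D-type cyclins and then cyclin E release E2F transcription factors from the retinoblastoma family, and E2F proteins switch on the genes of DNA replication. Genes of mitosis are expressed later, in G2 and M, when B-Myb and FOXM1 act on promoters that carry a cell cycle homology region (CHR), often with CCAAT boxes bound by NF-Y. The fetal lung grows by rapid division, slows towards birth, and divides again in the first weeks of life as alveoli form.

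The upstream sequences of a few members are shown because the replication and mitosis genes are compared throughout. RefSeq promoters of build GRCm38.p6 were matched by symbol for 32 of the 42 members. Aurkb, Ccna2, Ccnd1, Ccnd2, Ccne2, Foxm1, Gins1, Kif20a, Mcm4 and Tpx2 were not matched. Each sequence is the 150 bases before the annotated start, read 5′ to 3′ on the gene's strand. Capitals mark E2F-type letters (TTTCCCGC, TTTCGCGC, TTTGCCGC or TTTGGCGC), CCAAT, and CHR-type letters (TTTGAA or TTCGAA), on both strands and with overlaps kept.
Mcm6, helicase subunit, chr1:128359706-128359855, minus strand: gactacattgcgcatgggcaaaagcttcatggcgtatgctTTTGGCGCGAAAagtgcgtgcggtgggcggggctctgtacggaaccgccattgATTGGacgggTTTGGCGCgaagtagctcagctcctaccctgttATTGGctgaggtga
Cdc6, helicase loading, chr11:98908001-98908150, plus strand: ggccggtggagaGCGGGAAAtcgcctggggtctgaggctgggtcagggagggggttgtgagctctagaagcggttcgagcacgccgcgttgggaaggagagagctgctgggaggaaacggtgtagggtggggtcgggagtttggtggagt
Cdk1, mitotic kinase, chr10:69352913-69353062, minus strand: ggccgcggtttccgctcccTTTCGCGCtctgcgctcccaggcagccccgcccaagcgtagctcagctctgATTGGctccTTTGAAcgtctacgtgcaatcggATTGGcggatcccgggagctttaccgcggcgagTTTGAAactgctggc
Ccnb2, cyclin B2, chr9:70421555-70421704, minus strand: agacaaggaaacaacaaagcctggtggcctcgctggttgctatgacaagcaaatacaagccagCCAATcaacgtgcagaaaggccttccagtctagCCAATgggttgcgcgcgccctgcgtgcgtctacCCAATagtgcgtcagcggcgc

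Mcm6 showed E2F-type letters on both strands, the farthest beginning 110 bases before the start, and Cdk1 held both CCAAT and CHR-type letters. Over windows from 250 bases before to 50 after the start, E2F-type letters occurred in 6 of 13 replication members (46.2%), in 1 of 16 mitosis members (6.25%) and in 2.26% of all 32851 promoters. CHR-type letters occurred in 23.1% of replication members, 75% of mitosis members and 19.2% of all promoters. CCAAT and CHR-type letters occurred together in 15.4%, 75% and 7.52%. These are matches of letters, counted per gene for members and per promoter for the rest, and no binding was measured here. In the 150 bases before the start alone, CHR-type letters occurred in 15.4% of replication members, 31.2% of mitosis members and 9.7% of all promoters. There CCAAT and CHR-type letters occurred together in 0%, 31.2% and 2.43%, and E2F-type letters in 23.1%, 6.25% and 1.24%.

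Values are log2(signal + 16) after quantile normalization, and differences are on that scale, which understates changes of dim genes. Tests are from 1 limma model over all 22 groups, with Benjamini-Hochberg adjustment over 45037 probe sets, and a gene was called where its adjusted p was below 0.05. Each SE uses 1 spread shared by the 22 groups, and 3 libraries per group limit the precision. A p-value sets a difference against that shared spread, which can be smaller or larger than the spread of the libraries compared. Nfe2l2, the targeted gene, ranged from 10.49 to 12.25 across 33 wild-type libraries and from 4.41 to 8.26 across 33 knockouts, without overlap. The 24 arrays of PND1 to PND4 had been scaled differently from the 42 others, and no age step tested below crosses between these sets. The F tests of age within a genotype do cross them, as do rankings and ranges of values over all ages. In those, age and array scaling cannot be told apart. In whole lung, fewer cells of a type and less RNA per cell cannot be told apart.

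Several libraries stood apart from the other libraries of their group. As a summary for each library, each gene was centred on its mean over the 66 libraries and the centred values were averaged over members of a role. The mitosis mean was 1.37 in wild-type PND14 replicate 2, against -1.25 and -0.80 in replicates 1 and 3. It was 0.61 in wild-type E18.5 replicate 3 against -0.24 and -0.27, and -0.30 in wild-type PND0 replicate 2 against -1.33 and -1.22. In knockout PND2 replicate 1 it was 0.92, against -0.88 and 0.04. Other libraries stood as far apart. The mitosis mean was 0.33 in knockout PND3 replicate 1 against -0.62 and -0.44, and -0.71 in wild-type PND2 replicate 3 against 0.02 and 0.05. The first 4 libraries named, but neither of these last, were also the highest of their groups by over 1 in the mean of 9 thymocyte markers (Rag1, Rag2, Dntt, Ptcra, Cd8a, Cd8b1, Cd3e, Themis and Cd4), which mark developing T cells of the thymus, a dividing tissue beside the lung. That mean was 11.83 in wild-type PND14 replicate 2 against 6.48 and 9.10. It was 8.37 in wild-type E18.5 replicate 3 against 5.27 and 6.03, 9.17 in wild-type PND0 replicate 2 against 4.79 and 6.75, and 10.53 in knockout PND2 replicate 1 against 7.13 and 9.51. At PND3 it lay between 5.30 and 6.57 in all 6 libraries, and in wild-type PND2 replicate 3 it was 5.44 against 5.95 and 5.80.

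**Figure D1:**
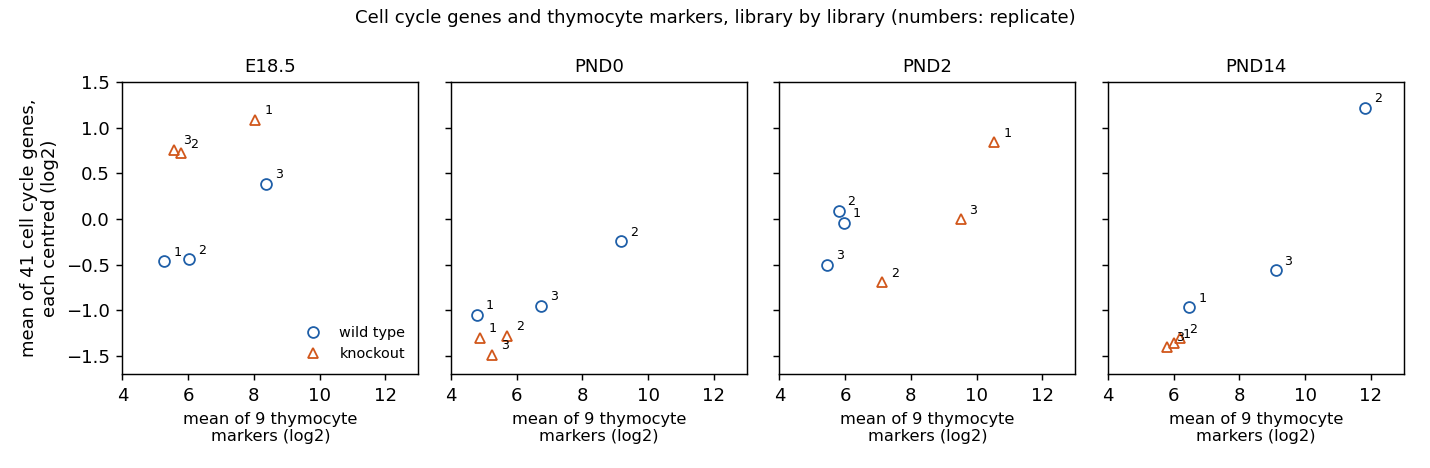
Mean of 41 cell cycle genes, each centred on its mean over 66 libraries (vertical axis, log2), against the mean of 9 thymocyte markers (horizontal axis, log2) for each library at 4 ages, with circles for wild type, triangles for knockout and the replicate number beside each point. Wild-type PND14 replicate 2 lies at 11.83 on the marker axis, while the E18.5 knockout replicates 2 and 3 lie above all 3 wild-type libraries on the cell cycle axis with marker means of 5.79 and 5.56, and knockout replicate 1 is highest on that axis with a marker mean of 8.04.

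In wild-type lung most of the cell cycle genes were at their highest in the early fetus, fell before birth, rose again over the first postnatal days and were low in the adult. All 41 differed with age in wild type (limma F test), where 74% of all genes did, and all 41 differed with age in knockouts, where 77.4% did. These tests, and the highest, lowest and range values that follow, span both sets of arrays. The highest group mean of wild type lay at E15.5 for 25 members, at E13.5 for 15 and at PND4 for 1, Foxm1. The lowest lay at PND42 for 36 members and at PND1 for 5. The range of the group means was a median of 3.83 (log2) for mitosis members, from 3.37 to 4.62, and of 2.85 for replication members, from 1.52 to 3.73.

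**Figure D2:**
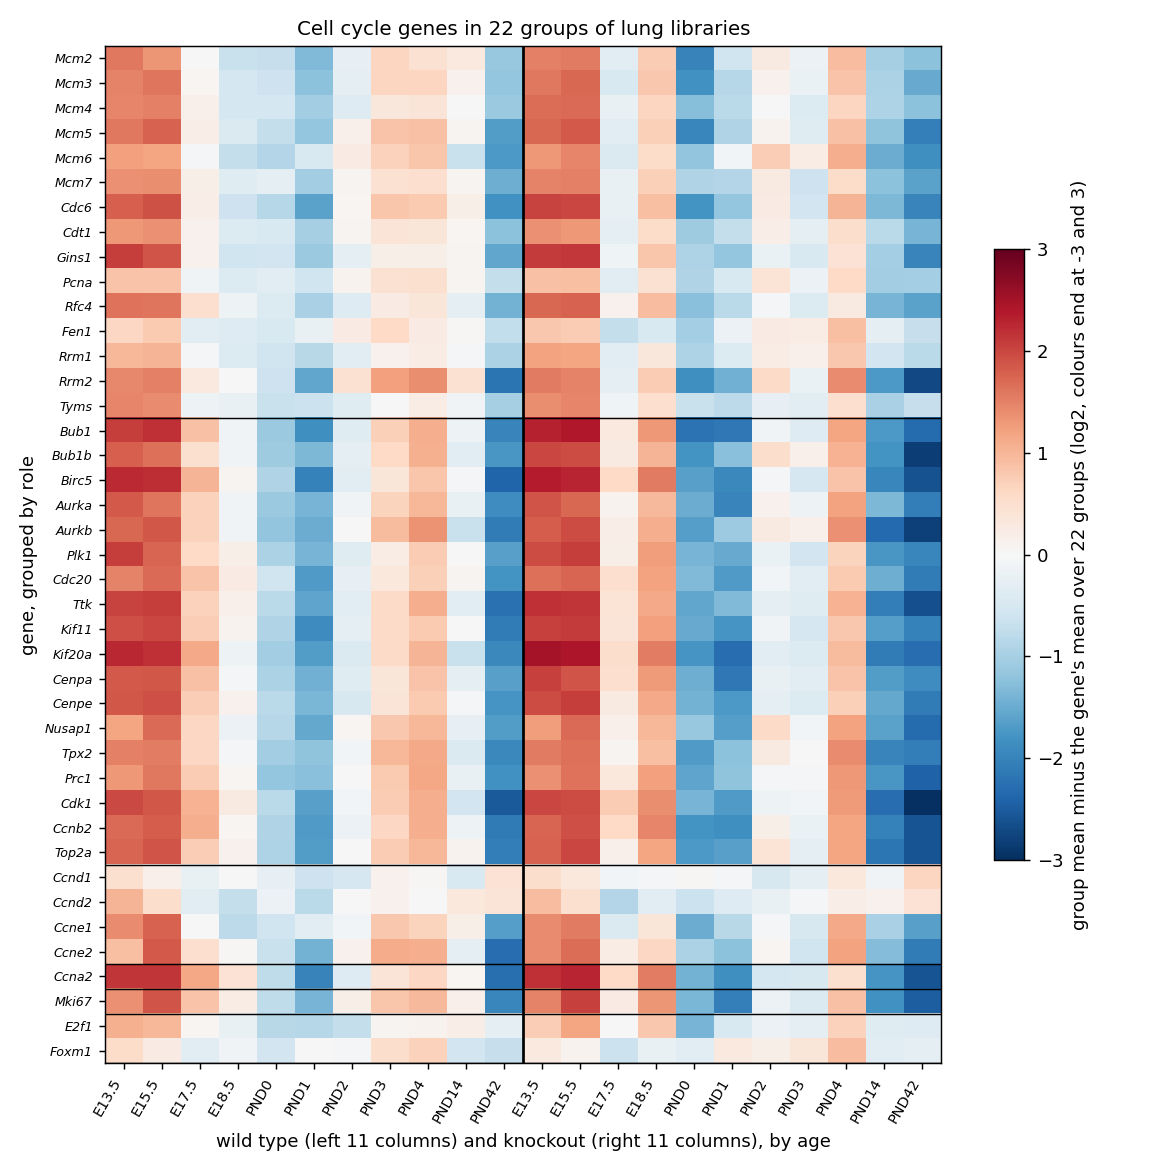
Group means of the 41 genes (rows, grouped by role) in wild type (left 11 columns) and knockout (right 11 columns) by age, each minus the gene's mean over the 22 groups (log2, colour). In both genotypes most rows are red at E13.5 and E15.5 and blue at PND42. Ccnd1 is an exception, with its highest knockout group mean at PND42. The knockout column labelled E18.5 is redder than the one labelled E17.5.

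Mki67 in the wild-type libraries stood at 12.17, 11.72 and 12.10 at E13.5, at 12.47, 12.51 and 12.57 at E15.5, and at 11.61, 11.65 and 11.17 at E17.5. It was then 10.54, 10.67 and 11.38 at E18.5, 9.51, 10.46 and 9.67 at PND0, and 8.90, 9.58 and 9.24 at PND1. The values of E15.5 lay above those of every later age except PND14, where 1 library reached 12.60. After birth Mki67 was 10.83, 11.47 and 10.13 at PND2, 11.52, 11.33 and 11.52 at PND3, and 11.66, 11.56 and 11.58 at PND4. It was 9.44, 12.60 and 10.32 at PND14 and 8.93, 8.28 and 8.85 at PND42. The PND4 libraries all lay above the PND1 libraries. The PND42 libraries overlapped the lowest values of PND1, which belong to the other set of arrays.

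Mcm2, a subunit of the replicative helicase, stood at 11.36, 10.94 and 11.06 at E13.5, 10.81, 10.97 and 10.81 at E15.5, and 9.86, 9.54 and 9.20 at E17.5 in wild type. It was 8.63, 8.39 and 9.60 at E18.5, 8.50, 9.42 and 8.63 at PND0, and 8.29, 8.15 and 8.19 at PND1. All E17.5 values lay below all E15.5 values. Mcm2 was 9.22, 9.48 and 9.16 at PND2, 10.31, 10.17 and 10.07 at PND3, and 9.91, 10.11 and 9.96 at PND4. It ended at 8.88, 11.23 and 9.33 at PND14 and at 8.38, 8.55 and 8.22 at PND42. Replicate 2 of PND14 was again the highest of its group, at the level of the early fetus.

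**Figure D3:**
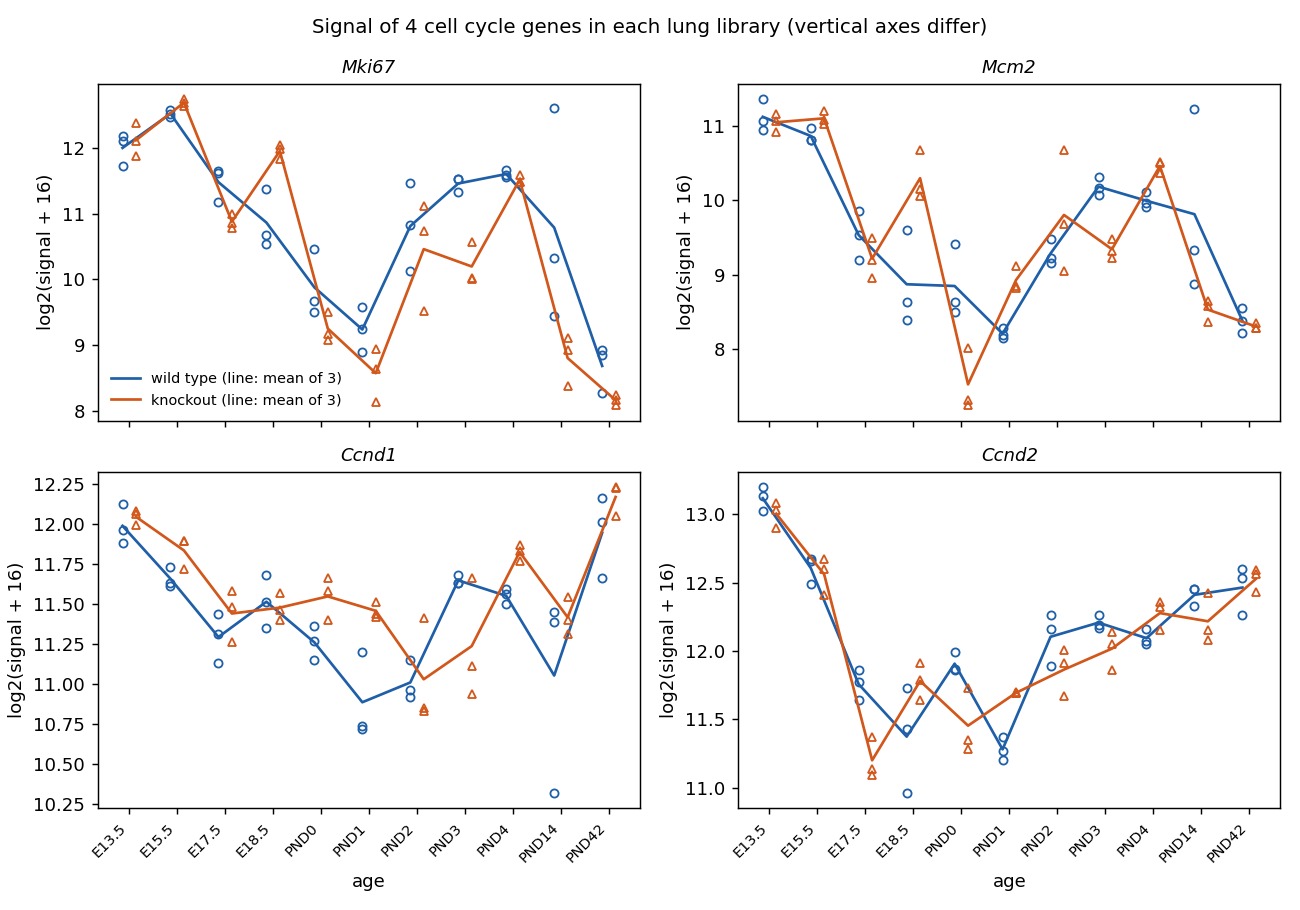
Signal of Mki67, Mcm2, Ccnd1 and Ccnd2 (vertical axes, log2(signal + 16), a separate scale in each panel) at the 11 ages, with circles for wild-type libraries, triangles for knockout libraries and lines through the means of 3. Mki67 and Mcm2 drop before birth and rise between PND1 and PND4, the range of Ccnd1 over its wild-type group means is 1.10, and wild-type PND14 replicate 2 is the highest of its group in Mki67 and the lowest in Ccnd1 (10.32).

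Between E13.5 and E15.5 the members barely moved. In wild type 1 of 41 was called lower, Ccnd2, the gene of cyclin D2 (-0.51 ± 0.12, SE, n = 3 per group, adjusted p = 0.00349), against 4.41% of all genes, and none was called higher, with 2 members at an unadjusted p under 0.05. In knockouts Ccnd2 was again the member called (-0.44 ± 0.12, adjusted p = 0.0282), against 1.46% of all genes. The knockout call was lost without knockout E13.5 replicate 1 or 3 and without knockout E15.5 replicate 1 or 3, with 0 members called in each case. The wild-type count was 2 without wild-type E13.5 replicate 3, and the median change over members was 0.03 in wild type and 0.05 in knockouts.

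From E15.5 to E17.5 replication and mitosis genes fell together. In wild type 33 of 41 members fell, against 12.5% of all genes, and none rose. All 15 replication members were among them, led by Gins1 of the GINS helicase complex (-1.77 ± 0.39, adjusted p = 0.000561), Cdc6, which helps load the helicase (-1.71 ± 0.41), and Mcm5 (-1.58 ± 0.32). Mcm2 fell by 1.33 (SE 0.31, adjusted p = 0.00121). Of mitosis members 12 of 18 fell, with a median of -1.10 over all 18, and Ccne1, which encodes cyclin E1, had the largest fall among the members (-1.78 ± 0.37). The members not called were Aurka, Cdc20, Nusap1, Tpx2, Cdk1, Ccnb2, Ccnd1 and Foxm1, with changes from -1.06 for Nusap1 to -0.36 for Ccnd1. Dimmer probe sets of Cdc20, Tpx2, Foxm1 and Ccnd1 were called lower, those of Ccnd1 by limma at -0.61 (adjusted p = 0.02) and -0.66 (adjusted p = 0.00253). The count of members called was 21 without wild-type E15.5 replicate 2 and 19 without wild-type E17.5 replicate 3.

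Markers of other cells differed over the same step in wild type, without overlap between ages. The thymocyte mean lay between 6.64 and 6.72 at E15.5 and between 4.79 and 4.99 at E17.5, with summed signals of 1559 to 2112 and of 127.1 to 167.8. The erythroid mean lay between 8.69 and 9.05 and then between 7.75 and 8.07, with summed signals of 11640 to 19070 and of 5265 to 7356. The alveolar type 2 mean was higher at the later age, between 12.82 and 13.05 against 9.76 to 10.05, with summed signals of 55200 to 61830 against 23200 to 24440. Their part in the fall of cell cycle genes was not tested.

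In knockouts 40 of 41 members fell over the same step, against 15.9% of all genes, with a median of -1.68 compared with -1.15 in wild type. Mki67 in knockouts was 11.87, 12.37 and 12.10 at E13.5, 12.63, 12.68 and 12.74 at E15.5, and 10.85, 11.00 and 10.78 at E17.5. Mcm2 in knockouts was 10.92, 11.16 and 11.06 at E13.5, 11.02, 11.20 and 11.08 at E15.5, and 9.49, 9.20 and 8.96 at E17.5. Both genes lay lower in all E17.5 libraries than in all earlier ones. Ccnd1, the gene of cyclin D1, was the member that did not pass (-0.39 ± 0.17, adjusted p = 0.0814). The steps of the 2 genotypes were compared directly, and limma called 0 members different, with 1 at an unadjusted p under 0.05, against 0.478% of all genes higher and 0.0879% lower. All 41 step differences were negative, with a median of -0.51.

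The late fetal groups of the knockout went against the order of wild type. Members had centred means of -0.28 (replication) and 0.35 (mitosis) in the knockout libraries labelled E17.5, and of 0.60 and 1.22 in those labelled E18.5. Wild type went the other way, from 0.08 and 0.79 at E17.5 to -0.43 and 0.03 at E18.5. In wild type none of 41 was called between these ages by limma, with 17 at an unadjusted p under 0.05 and 39 lower, and 2 were called without wild-type E18.5 replicate 3. Of all genes 1.07% rose and 0.77% fell there. In knockouts 7 of 41 rose, against 2.87% of all genes. These were Mcm3 (1.26 ± 0.29, adjusted p = 0.00455), Mcm2, Mcm4 and Mcm5 of the helicase, Pcna, the sliding clamp of DNA polymerases, Ccnd2 and E2f1. The count was 3 without knockout E17.5 replicate 2, 1 without its replicate 3, 1 without knockout E18.5 replicate 1 and 3 without its replicate 3.

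The difference between those steps was called for 25 members, all with the change higher in knockouts, against 5.64% of all genes. Among them were 12 of 15 replication and 9 of 18 mitosis members, led by Kif20a, a kinesin of cell division (2.28 ± 0.51, adjusted p = 0.00224), and Bub1, a spindle checkpoint kinase (2.02 ± 0.52). The count fell to 9 and 14 without wild-type E17.5 replicates 1 and 2, to 9 and 7 without wild-type E18.5 replicates 1 and 2, to 13 and 12 without knockout E17.5 replicates 2 and 3, and to 7 without knockout E18.5 replicate 1. The knockout groups were also set against the other wild-type age. No member was called by limma between the knockout libraries labelled E18.5 and wild-type E17.5 (4 at an unadjusted p under 0.05, median 0.43), nor between the knockout libraries labelled E17.5 and wild-type E18.5 (1 at an unadjusted p under 0.05, median 0.23). Few genes were called at all there, 0.126% higher and 0.115% lower in the first comparison and 0.638% and 0.269% in the second, so these counts of 0 are near the background. Whether the labels of these groups were exchanged was not tested.

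At E17.5 itself the knockout differed from wild type in 1 of 41 members. Ccnd2 stood at 11.37, 11.14 and 11.09 in knockouts and at 11.77, 11.86 and 11.64 in wild type, without overlap. It was lower by 1.47-fold (-0.56 ± 0.12, SE, n = 3 per group, adjusted p = 0.00536), against 0.324% of all genes called lower and 1.32% called higher at this age. The median over members was -0.40, and 39 of 41 were negative. Macrophage markers were higher in 3 of 8 at this age, with summed signals of 5060 to 6246 in knockouts and 3153 to 3514 in wild type, and oesophagus markers were lower in 2 of 6, with 117.7 to 409.7 against 3049 to 4047. Fetal liver markers were called in 0 of 7 by limma (median 2.46), with 2017 to 4827 against 136 to 195.9. Their part in the result was not tested. The Ccnd2 call was lost without wild-type replicate 2 and without knockout replicate 2 or 3, with 0 members called in each case.

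At E18.5 cell cycle genes of both main roles were higher in the knockout libraries. Of 41 members 27 rose and none fell, against 7.1% and 5.3% of all genes, and the median over all 41 was 1.08, compared with 0.03 over all genes. In 34 members all knockout values lay above all wild-type values, which held for 16.9% of all genes. Cdc6 stood at 9.15, 8.40 and 8.62 in knockouts and at 6.78, 6.64 and 8.20 in wild type, a rise of 1.51 (SE 0.41, n = 3 per group, adjusted p = 0.0129). Kif20a stood at 10.17, 9.80 and 9.67 against 7.78, 7.95 and 8.88, a rise of 1.68 (SE 0.36, adjusted p = 0.00149). In both genes wild-type replicate 3 was the library nearest to the knockouts, and the genotypes did not overlap. Ccne1 stood at 8.43, 7.99 and 7.96 against 6.54, 6.51 and 7.84, a rise of 1.17 (SE 0.37, adjusted p = 0.0384).

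Among replication genes 12 of 15 rose at E18.5. All 6 MCM helicase subunits rose, with Mcm2 at 10.68, 10.06 and 10.15 in knockouts and 8.63, 8.39 and 9.60 in wild type (1.42 ± 0.31, adjusted p = 0.00172), and with Mcm7 the smallest of the 6 (1.07). Cdt1, a gene of helicase loading, rose by 0.95 and Gins1 of the GINS complex by 1.43. Pcna (0.87), the clamp loader gene Rfc4 (1.06) and Rrm1, a subunit of ribonucleotide reductase (0.76), rose as well. The members not called were Rrm2, the other reductase subunit (0.78, adjusted p = 0.32), Tyms, the thymidylate synthase gene (0.71), and Fen1, a flap endonuclease (-0.06). A second Fen1 probe set was called higher (1.18, adjusted p = 0.00557), and a second Mcm2 probe set was not (0.35, adjusted p = 0.534), so probe sets of these genes disagreed. Of the 60 other probe sets of members, 19 were called higher and 0 lower.

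Of the mitosis genes 11 of 18 rose at E18.5, and all 18 had positive differences, from 0.93 to 1.68. Birc5, the gene of survivin, rose by 1.48, Bub1 by 1.42, Ccnb2 by 1.41 and Cenpa, the centromeric histone, by 1.33. The kinase genes Aurka (1.08), Aurkb (1.20), Plk1 (1.07) and Cdk1 (1.14) rose too, as did Cdc20, the activator of the anaphase-promoting complex (0.95), and Prc1 of the midzone (1.17). Bub1b, Ttk, Kif11, Cenpe, Nusap1, Tpx2 and Top2a had adjusted p from 0.0593 to 0.101. In the other roles E2f1 (1.02 ± 0.21, adjusted p = 0.00102), Ccna2 (1.11), Ccne1 and Ccnd2 (0.41) rose. A second E2f1 probe set, with a mean of 7.73 against 7.82, was not called (0.16, limma adjusted p = 0.787), so the E2f1 probe sets disagreed. Second probe sets of Ccne1 (0.88, adjusted p = 0.0945) and Ccna2 (1.01, adjusted p = 0.111) did not pass either. Mki67 stood at 12.04, 11.98 and 11.83 in knockouts, all above the wild-type 10.54, 10.67 and 11.38, and did not pass (1.08 ± 0.37, adjusted p = 0.0584). Ccnd1 (-0.04) and Foxm1 (-0.12) were not called on their brightest probe sets, while a dimmer Foxm1 probe set was called (1.64, adjusted p = 0.0393).

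Other replication and mitosis genes moved with the members at E18.5, where 7.1% of all genes were called higher and 5.3% lower. Of 35 further replication genes 20 rose and none fell, led by Uhrf1, a partner of DNA methylation at the replication fork (1.70 ± 0.52), Tk1, thymidine kinase (1.46), and Cdc7, which fires origins (1.31). Of 45 further mitosis genes 22 rose and none fell, led by the phosphatase gene Cdc25c (1.66 ± 0.43), Cenpk (1.64) and Cdca3 (1.57). Among 12 other cyclin and kinase genes 3 rose: Cdk4, the partner of D cyclins (0.96 ± 0.13), Chek1 (0.89) and Wee1 (0.70). Of 15 inhibitor and retinoblastoma family genes 4 fell and 2 rose. Cdkn2b, the gene of p15 (-1.47 ± 0.35, adjusted p = 0.00418), and Cdkn1a, the gene of p21 (-1.21 ± 0.25), were lower, while Cdkn2c, the gene of p18, was higher (0.67). These 3 genes went the other way after birth. Cdkn1a was higher in knockouts at PND0 (2.06 ± 0.25, limma adjusted p = 3.08e-08) and at PND3 (0.82, adjusted p = 0.0303). At PND3 Cdkn2b was higher (1.245, adjusted p = 0.0166) and Cdkn2c lower (-0.49, adjusted p = 0.0284). At PND0 these 2 did not pass in limma (1.00, adjusted p = 0.0556, and -0.31). Of 15 E2F, DREAM and Myb factor genes 3 rose, E2f7 (0.89), E2f3 (0.55) and E2f6 (0.51).

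**Figure D4:**
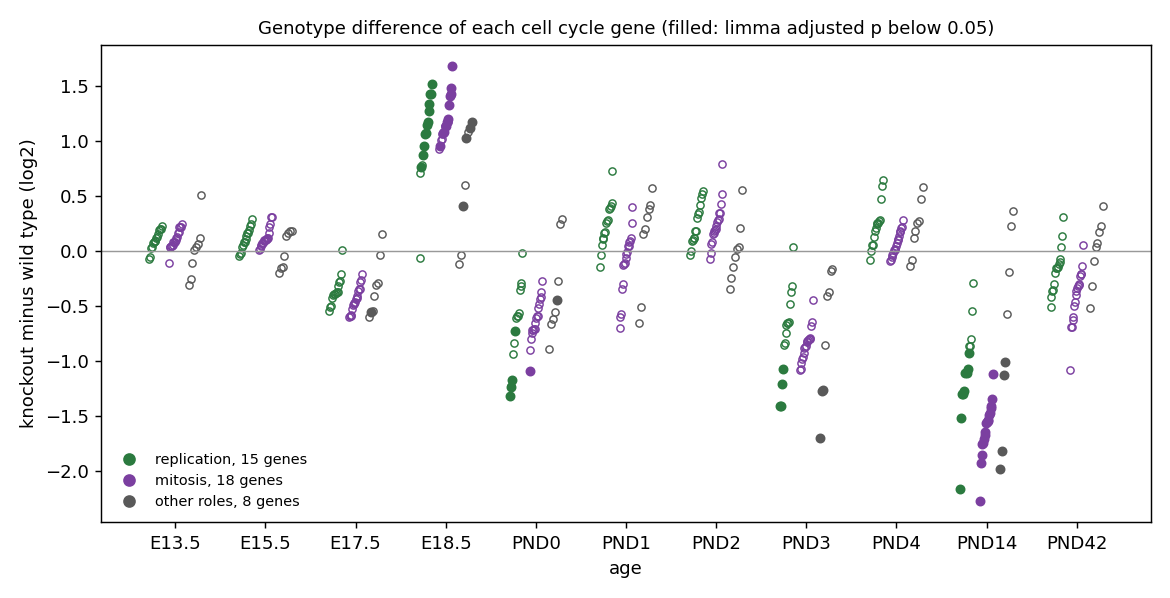
Knockout minus wild-type difference of each of the 41 genes at each age (vertical axis, log2), coloured by role, with filled points for genes with limma adjusted p below 0.05. At E18.5 27 points are filled, all above 0, and at PND14 31 are filled, all below 0, while none is filled at E13.5, E15.5, PND1, PND2, PND4 and PND42.

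The E18.5 count depended on single libraries, with 6 members called without wild-type replicate 1, 5 without wild-type replicate 2, 5 without replicate 1 of the knockouts, and 34 without wild-type replicate 3, and with medians from 0.92 to 1.37. Knockout replicates 1, 2 and 3, with thymocyte means of 8.04, 5.79 and 5.56, had means over the 41 members of 1.09, 0.72 and 0.76. Wild-type replicates 1, 2 and 3, with thymocyte means of 5.27, 6.03 and 8.37, had member means of -0.46, -0.44 and 0.39. In each genotype the library highest in thymocyte markers was also highest in the members. The same libraries were highest in muscle markers. Summed heart muscle signals were 54220 against 6784 and 5892 in wild type, and 76500 against 17220 and 29740 in knockouts. Those of skeletal muscle were 8331 against 1272 and 785.7, and 14860 against 1754 and 1951. No thymocyte marker of 9 was called at this age (limma, median -0.14), and their summed signal ran from 267.3 to 7014 in wild type and from 367.5 to 4618 in knockouts. Cartilage markers were higher in 3 of 9, with summed signals of 1504 to 14970 in knockouts and 723 to 1434 in wild type. Alveolar type 1 cell markers were lower in 4 of 6, with 25890 to 37590 against 46330 to 56970. The part of thymus, muscle, cartilage and type 1 cells in the result was not tested.

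Between E18.5 and the day of birth most members fell in knockouts, and few passed the test in wild type. In knockouts 38 of 41 members fell, against 19.2% of all genes, with a median of -2.59. Bub1 fell most (-3.52 ± 0.37, SE, n = 3 per group, adjusted p = 6.04e-11), followed by Kif20a (-3.31) and Ccnb2 (-3.26). Mki67 in knockouts went from 12.04, 11.98 and 11.83 to 9.08, 9.51 and 9.17 (-2.70 ± 0.37, adjusted p = 7.2e-08), and Mcm2 from 10.68, 10.06 and 10.15 to 8.02, 7.32 and 7.25 (-2.77 ± 0.31, adjusted p = 4.41e-10). Neither gene overlapped between these ages. Fen1, Foxm1 and Ccnd1 were the members that did not pass.

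In wild type 4 of 41 fell over the same step and 1 rose, against 2.42% and 3.26% of all genes. Prc1 (-1.21 ± 0.30, adjusted p = 0.0104), Ccna2 (-1.18), Plk1 (-1.13) and Cdk1 (-1.07) fell, and Ccnd2 rose (0.54 ± 0.12, adjusted p = 0.00365). The wild-type median was -0.69 over all 41, with 22 at an unadjusted p under 0.05, of which 17 were mitosis members. The count of 5 was between 1 and 8 when each of the 6 libraries was left out, with 8 without wild-type PND0 replicate 2, 1 without wild-type E18.5 replicate 3 or wild-type PND0 replicate 1 or 3, and 3 without wild-type E18.5 replicate 1 or 2. The genotypes' steps differed in 35 members, all lower in knockouts, against 10.1% of all genes, with Mcm2 at -2.75 ± 0.44 (adjusted p = 1.13e-05). That count was 23 and 21 without wild-type E18.5 replicates 1 and 2, 21 without knockout E18.5 replicate 1, 19 without wild-type PND0 replicate 2 and 23 without knockout PND0 replicate 3. The step starts from the same E18.5 libraries as the comparison above.

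Between E18.5 and PND0 mitosis genes fell further than replication genes. In wild type the median change from E18.5 to PND0 was -0.10 over 15 replication members and -1.0 over 18 mitosis members. The mitosis mean minus the replication mean of a library lay between 0.43 and 0.51 at E18.5 and between -0.49 and -0.19 at PND0, so the libraries of these ages did not overlap. It changed by -0.83 in wild type and by -0.90 in knockouts, where it lay between 0.49 and 0.73 at E18.5 and between -0.33 and -0.20 at PND0. In knockouts both roles fell over this step, with medians of -1.755 for replication and -2.751 for mitosis members. A gap of this kind was not particular to birth. The mean difference was -0.37 in wild type and -0.28 in knockouts at PND0, and -0.63 and -0.89 at PND42. From PND1 to PND4 the difference changed by 1.04 in wild type, from -0.58 ± 0.07 to 0.46 ± 0.12 (SD, n = 3), and by 1.22 in knockouts, from -0.92 ± 0.26 to 0.30 ± 0.08. With the second brightest probe set of each gene these changes were smaller, -0.57, -0.37, 0.53 and 0.66, in the same directions. They are averages of log2 signals over different probe sets and are given without a test.

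**Figure D5:**
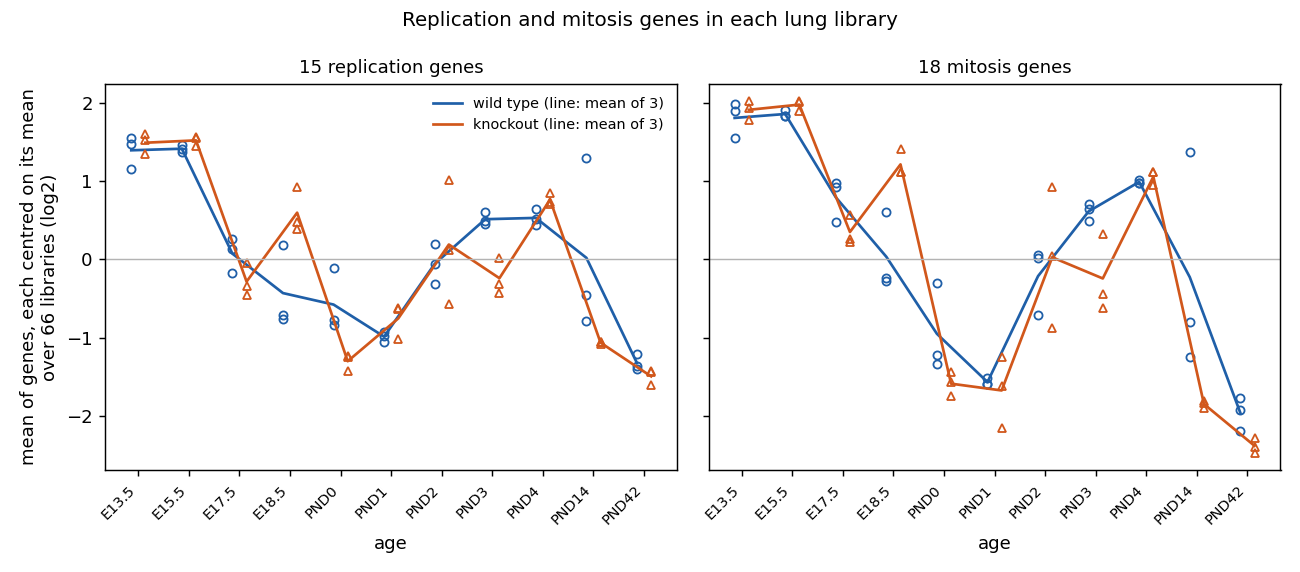
Mean of 15 replication genes (left) and 18 mitosis genes (right) in each library, each gene centred on its mean over 66 libraries (vertical axis, log2), by age, with circles for wild type, triangles for knockout and lines through the means of 3. In wild type the mean of mitosis genes goes from 0.03 at E18.5 to -0.95 at PND0 and that of replication genes from -0.43 to -0.58, and a single wild-type circle lies at 1.30 and 1.37 at PND14.

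At PND0 6 of 41 members were lower in knockouts and none higher, against 8.62% and 5.85% of all genes. They were the helicase genes Mcm2, Mcm3, Mcm4 and Mcm5, the checkpoint gene Bub1, and Ccnd2. Mcm2 stood at 8.02, 7.32 and 7.25 in knockouts and at 8.50, 9.42 and 8.63 in wild type (-1.32 ± 0.31, SE, n = 3 per group, adjusted p = 0.00234). Bub1 stood at 6.52, 6.74 and 6.65 against 7.28, 8.14 and 7.78 (-1.10 ± 0.37, adjusted p = 0.0441), and Ccnd2 at 11.73, 11.28 and 11.35 against 11.86, 11.87 and 11.99 (-0.45 ± 0.12, adjusted p = 0.00783). The 3 genes did not overlap between genotypes. In all, 39 of 41 members were negative, with a median of -0.61, and in 27 all knockout values lay below all wild-type values, which held for 18.6% of all genes. Ccnd1 went the other way without passing (0.29, adjusted p = 0.331).

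The PND0 count was 2 without wild-type replicate 2, whose thymocyte mean of 9.17 was above the 4.79 and 6.75 of the other wild-type libraries, and the median was then -0.34. It was 3 and 2 without knockout replicates 2 and 3. The Bub1 call was lost in 7 of 16 alternatives, and Mcm2 was called in all 16. No thymocyte marker of 9 was called (limma, median -1.34), with summed signals of 122.3 to 11130 in wild type and 142 to 392.3 in knockouts. The part of thymus in the PND0 result was not tested beyond leaving out that library.

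Over the first postnatal days cell cycle genes rose in both genotypes. From PND1 to PND4, 37 of 41 rose in wild type and 39 of 41 in knockouts, against 7.31% and 4.91% of all genes, and none fell. The median rise in wild type was 1.36 for replication and 2.61 for mitosis members. Bub1 rose by 2.94 (SE 0.37, n = 3 per group, adjusted p = 9.47e-08), Rrm2 by 2.93 and Birc5 by 2.86. Mki67 rose by 2.37 (SE 0.37, adjusted p = 8.65e-06) and Mcm2 by 1.78 (SE 0.31, adjusted p = 4.79e-05). A second Mcm2 probe set changed by 0.48 over this step and did not pass in limma (adjusted p = 0.303). The members with smaller changes were Fen1 (0.48) and Foxm1 (0.71), which did not pass, Tyms (0.86) and Ccne1 (0.99), which did not pass either, and Ccnd1 (0.67), which did.

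In knockouts Mki67 was 8.95, 8.64 and 8.14 at PND1, 11.12, 9.52 and 10.74 at PND2, 10.57, 10.02 and 10 at PND3, and 11.48, 11.48 and 11.58 at PND4 (2.94 ± 0.37 from PND1 to PND4, adjusted p = 1.84e-07). Mcm2 was 9.12, 8.85 and 8.82 at PND1, 10.68, 9.05 and 9.68 at PND2, 9.48, 9.32 and 9.23 at PND3, and 10.36, 10.50 and 10.52 at PND4 (1.53 ± 0.31, adjusted p = 0.000628). In both genes every PND4 library lay above every PND1 library. The rise from PND1 to PND4 was called different between genotypes in 0 members by limma, with 0 at an unadjusted p under 0.05, and the median difference of the rises was 0.02. Over all genes 0.0055% were called higher and 0.022% lower in that test, so the 0 is the background.

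The rise from PND1 to PND4 was also followed day by day. From PND1 to PND2, 25 of 41 members rose in wild type and 24 in knockouts, against 3.58% and 1.96% of all genes. From PND3 to PND4, 28 rose in knockouts, against 4.87%, while limma called 0 in wild type, with 0 at an unadjusted p under 0.05 and with 0% of all genes called in either direction. From PND2 to PND3 limma called 0 members in either genotype, with 23 at an unadjusted p under 0.05 in wild type (median 0.77) and 3 in knockouts (median -0.28). Of all genes 0.456% rose and 0.297% fell in wild type over that day, and 3.54% and 5.02% in knockouts. The genotypes' daily steps were called different for Ccne2 alone, lower in knockouts from PND2 to PND3 (-1.65 ± 0.43, SE, n = 3 per group, adjusted p = 0.0423, against 1.13% of all genes) and higher from PND3 to PND4 (1.82 ± 0.43, adjusted p = 0.0267, against 0.649%). From PND1 to PND2 limma called 0 steps different, with 2 at an unadjusted p under 0.05, against 0.225% and 0.203% of all genes.

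These daily counts moved with single libraries. The wild-type count from PND1 to PND2 was 13 and 10 without PND2 replicates 1 and 2. The knockout count was 3 without PND2 replicate 1, whose thymocyte mean was 10.53, 15 without PND2 replicate 3, and 15 and 13 without PND1 replicates 2 and 3. From PND3 to PND4 the knockout count was 6 and 11 without PND3 replicates 2 and 3, and 14, 17 and 13 without PND4 replicates 1, 2 and 3. From PND2 to PND3, 5 members fell in knockouts without knockout PND2 replicate 2, and 11 steps then differed. The Ccne2 call of that step was lost without each of 9 libraries (wild-type PND2 replicates 1 and 3, all 3 of wild-type PND3, knockout PND2 replicates 1 and 3, knockout PND3 replicates 2 and 3), and that of PND3 to PND4 without any of wild-type PND3, wild-type PND4 replicates 1 and 3, knockout PND3 replicates 2 and 3 or knockout PND4 replicates 1 and 3. From PND1 to PND2, 1 step differed without wild-type PND2 replicate 2 or knockout PND2 replicate 3.

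Among the other cell cycle genes, 27 of 35 replication and 42 of 45 mitosis genes rose from PND1 to PND4 in wild type and none fell. In knockouts 26 and 41 rose. Of all genes 7.31% rose over this step in wild type and 4.91% in knockouts. Of the 15 inhibitor and retinoblastoma family genes 2 rose and 2 fell in wild type, against 7.31% and 6.05% of all genes. Cdkn1a fell by 1.52 (adjusted p = 1.83e-05) and Cdkn1b, the gene of p27, fell by 0.52, while Cdkn2c rose by 1.95 and Rbl1, the gene of p107, rose by 1.56. In the fetal step from E15.5 to E17.5 Cdkn2b had risen by 3.72 and Cdkn1a by 0.84 in wild type, with 5 of the 15 higher and 1 lower, against 12.1% and 12.5% of all genes.

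On PND3 the knockout lay below wild type. Of 41 members 7 were lower and none higher, against 6.69% and 4.11% of all genes, and 40 were negative, with a median of -0.82. Ccne2, which encodes cyclin E2, stood at 8.31, 7.85 and 7.71 in knockouts and at 9.63, 9.63 and 9.72 in wild type (-1.71 ± 0.31, SE, n = 3 per group, adjusted p = 0.000117). Rrm2 stood at 11.07, 10.31 and 10.51 against 12.12, 12.00 and 12.03 (-1.42 ± 0.43, adjusted p = 0.0292), and Mki67 at 10.57, 10.02 and 10 against 11.52, 11.33 and 11.52 (-1.26 ± 0.37, adjusted p = 0.0238). The genotypes did not overlap in these genes, and in 30 of 41 members all knockout values were the lower ones, which held for 18.4% of all genes. Cdc6 (-1.41), Ccne1 (-1.28), Mcm5 (-1.21) and Mcm7 (-1.07) were lower as well, and no mitosis member of 18 passed in limma, with 16 at an unadjusted p under 0.05.

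The PND3 count was 15 without knockout replicate 1, 1 without knockout replicate 2, 3 without knockout replicate 3, 2 without wild-type replicate 1 and 3 without wild-type replicate 3. Ccne2 was called in all 16 alternatives. Thymocyte means lay between 5.30 and 6.57 in all 6 libraries of PND3. Fetal liver markers were lower in 2 of 7, with summed signals of 236.5 to 366.6 in knockouts and 803.5 to 68040 in wild type, and skeletal muscle markers were higher in 4 of 8, with 2747 to 96560 against 1853 to 2329. Erythroid markers were lower in 2 of 8, with 6757 to 10040 against 6175 to 8103. The part of these tissues in the result was not tested.

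At PND14 the knockout libraries were lower in most members, and the size of this difference rested on 1 wild-type library. Of 41 members 31 fell and none rose, against 4.17% and 5.18% of all genes, with a median of -1.35, compared with 0.07 over all genes. All 18 mitosis members fell, from -1.12 for Aurka to -2.27 for Top2a, and 9 of 15 replication members did. Top2a, the gene of topoisomerase II alpha, stood at 8.24, 8.55 and 8.21 in knockouts and at 9.26, 12.63 and 9.94 in wild type (-2.27 ± 0.41, SE, n = 3 per group, adjusted p = 0.000239). Rrm2 stood at 9.0, 9.41 and 8.94 against 9.85, 13.15 and 10.85 (-2.17 ± 0.43), and Mki67 at 8.38, 9.11 and 8.93 against 9.44, 12.60 and 10.32 (-1.98 ± 0.37). Mcm2 stood at 8.37, 8.65 and 8.58 against 8.88, 11.23 and 9.33 (-1.28 ± 0.31, adjusted p = 0.00665). In each of these genes all knockout values were below all wild-type values, and replicate 2 was by far the highest. That order of all values held for 28 of 41 members, against 5.42% of all genes. Dimmer probe sets of Top2a (-0.73, limma adjusted p = 0.255, and -0.15) and of Mcm2 (-0.55, adjusted p = 0.2) did not pass. Those of Rrm2 did (-2.33 and -2.62).

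Without wild-type PND14 replicate 2, 2 of 41 members were called, Top2a (-1.26 ± 0.33, adjusted p = 0.0361) and Cdk1 (-1.05 ± 0.27, adjusted p = 0.0355), against 0.583% of all genes lower. Without it the median was -0.58, with -0.82 over mitosis members and -0.43 over replication members. Fen1 went from -0.29 to 0.02, and Ccnd1, at 0.36 with all libraries, was no longer above 0. Mki67 was then at -1.07 (adjusted p = 0.0648) and Mcm2 at -0.57 (adjusted p = 0.379). With the 6 libraries of PND14 alone in the fit none was called by limma. Of 9 thymocyte markers 7 fell at PND14 (median -3.29), with summed signals of 954.7, 53490 and 8242 in wild-type replicates 1, 2 and 3 and of 442.3 to 668.6 in knockouts, and Rag1 to Cd4 were each below the array median of 6.72 in 25 to 61 of the 66 libraries. The wild-type library with the lowest thymocyte mean, replicate 1 (6.48), had a mitosis mean of -1.25, and the knockout libraries, with thymocyte means of 5.79 to 6.20, had mitosis means of -1.90 to -1.81.

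Other cell cycle genes went the same way at PND14, where 4.17% of all genes were called lower and 5.18% higher. Of 45 further mitosis genes 31 fell, led by the cohesin protector gene Sgo1 (-2.93 ± 0.38, adjusted p = 1.25e-06), the kinetochore gene Spc25 (-2.17) and Cenpf (-1.95). Of 35 further replication genes 15 fell, led by Uhrf1 (-2.28 ± 0.52), Tk1 (-1.65) and the histone chaperone gene Asf1b (-1.34). Ccnf (-1.50), Chek1 (-1.30) and Ccnd3 (-0.97) fell among 6 of 12 cyclin and kinase genes, and E2f8 (-1.40), Myc (-1.01) and E2f7 (-1.0) among 4 of 15 factors. Of the 15 inhibitor and retinoblastoma family genes Cdkn2d (-0.88) and Rbl1 (-0.59) fell. These counts include the same wild-type library.

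At the remaining ages no member was called between genotypes. Limma called 0 of 41 at E13.5 and at E15.5 (0 at an unadjusted p under 0.05 at both), 0 at PND1 (4 at an unadjusted p under 0.05), 0 at PND2 (3), 0 at PND4 (3) and 0 at PND42 (2). The shares of all genes called higher and lower were 0.715% and 1.24% at E13.5, 0.077% and 0.066% at E15.5, 1.79% and 0.759% at PND1, 3.11% and 2.84% at PND2, 0.368% and 0.275% at PND4, and 3.2% and 1.59% at PND42. For the earliest ages the medians over members were 0.08 at E13.5 and 0.10 at E15.5, and no difference was larger than 0.51 in size. All knockout values lay above all wild-type values in 16 of 41 members at E15.5, against 9.01% of all genes, and below in 0, against 10.2%. At PND42 the median was -0.23, with Bub1b lowest (-1.08, adjusted p = 0.113). Adult Mki67 stood at 8.17, 8.09 and 8.24 in knockouts against 8.93, 8.28 and 8.85 in wild type, and Mcm2 at 8.28, 8.28 and 8.36 against 8.38, 8.55 and 8.22. The Mki67 values did not overlap and the Mcm2 values did. At PND42 12 members had all knockout values below wild type, against 10.1% of all genes, and 0 had all above, against 16.3%. Leaving out wild-type PND1 replicate 1 gave 1 call at PND1, and leaving out knockout PND2 replicate 2 gave 1 at PND2.

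At PND2 the knockout libraries were spread widely, with Mki67 at 11.12, 9.52 and 10.74 and Mcm2 at 10.68, 9.05 and 9.68 beside wild-type values of 9.22, 9.48 and 9.16 for Mcm2. Thymocyte markers rose in 7 of 9 in these knockouts (median 3.43), and the knockout library with the highest marker mean, replicate 1, was highest in both genes. At PND1 the Mcm2 values of knockouts, 9.12, 8.85 and 8.82, all lay above those of wild type, 8.29, 8.15 and 8.19, without a call (0.72, adjusted p = 0.262). At PND1 8 members had all knockout values above wild type, against 13.9% of all genes, and 2 had all below, against 8.48%. At PND2 1 lay above, against 10.1%, and 0 below, against 7.94%. At PND4 14 of 41 members had all knockout values above all wild-type values, against 10.4% of all genes, and the largest difference was that of Fen1 (0.64, adjusted p = 0.288).

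Averaged over the 11 ages, 2 members were lower in knockouts and 1 higher, against 4.5% and 6.78% of all genes. These counts are near or below the background. Mki67 (-0.43 ± 0.11, SE, n = 33 per genotype, adjusted p = 0.00789) and Rrm2 (-0.43 ± 0.13, adjusted p = 0.0231) were lower, and Ccnd1 was higher (0.15 ± 0.05, adjusted p = 0.0397). Ccnd1 lost its call in 26 of 79 alternatives, with adjusted p from 0.0137 to 0.424. The average mixes opposite directions, since the members were higher at E18.5 and lower at PND0, PND3 and PND14. Over the 7 ages outside PND1 to PND4, 1 member was lower and none higher, against 2.94% and 3.56% of all genes. Without PND14 the average called 1 member, higher, and without E17.5 and E18.5 it called 16, 15 of them lower. The count of 3 was 8 and 6 without wild-type PND14 replicates 1 and 3, 6 without wild-type PND2 replicate 3 and 7 without knockout PND2 replicate 1. Whether the knockout difference depended on age was tested directly, and it did in 37 of 41 members (limma F test), against 35.1% of all genes. Fen1, Tyms, Ccnd1 and Foxm1 were the members without that call.

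Of the other cell cycle genes, 10 of 45 mitosis genes were lower and 1 higher in the average over ages, led by Spc25 (-0.62 ± 0.11), Sgo1 (-0.46) and the kinase gene Melk (-0.41). No other replication gene of 35 was called (limma). Of all genes 4.5% were called lower and 6.78% higher in this average. Among inhibitors and the retinoblastoma family 4 of 15 were higher and 2 lower, with Cdkn2b at 0.31, Cdkn1b at 0.25 (adjusted p = 1.34e-05) and Rbl1 at -0.19. Ccnh, a cyclin of the CDK-activating kinase, was lower (-0.15) and E2f4 higher (0.28).

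From PND14 to PND42, 36 of 41 members fell and 1 rose in wild type, against 10.5% and 9.58% of all genes, with Rrm2 at -2.65 and Mki67 at -2.11. Without wild-type PND14 replicate 2, 18 fell and 1 rose, and with these groups alone in the fit none was called by limma. In knockouts 1 of 41 fell, Cdk1 (-0.94 ± 0.30, adjusted p = 0.0322), and 1 rose, Ccnd1, against 8.2% and 6.98%, and that count was 1 without knockout PND14 replicate 1 or 3 or knockout PND42 replicate 2. Ccnd1 rose in both genotypes, by 0.89 (SE 0.17, adjusted p = 9.79e-05) in wild type and by 0.75 (SE 0.17, adjusted p = 0.00126) in knockouts. The steps were called different in 0 members by limma, with 28 at an unadjusted p under 0.05 and against 0.956% of all genes higher and 0.423% lower, and in 17 without wild-type PND14 replicate 1, 2 without its replicate 3 and 1 without knockout PND42 replicate 3.

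From PND0 to PND14, 4 of 41 members rose in wild type, Mcm2 (0.96), Prc1 (0.94), Ccnd2 (0.50) and E2f1 (1.04), against 8.94% of all genes, which is near the background. In knockouts Mcm2 (1.01), Mcm3 (0.86), Fen1 (0.77), Ccnd2 (0.76) and E2f1 (1.03) rose and Cdk1 fell (-0.88), against 22% and 12.4% of all genes, where the median over all genes was itself 0.13. The knockout counts lay below those shares. The wild-type count ranged from 2 to 29 when 1 library was left out, with 29 without PND14 replicate 1, 11 without PND14 replicate 3, 15 without PND0 replicate 2, and 2 without PND14 replicate 2 or PND0 replicate 1 or 3. The knockout count of 6 was 3 without PND14 replicate 2. The genotypes' steps were called different in 0 members by limma, with 9 at an unadjusted p under 0.05 and against 6.87% of all genes higher and 3.13% lower, and in 11, 3 and 3 without wild-type PND14 replicate 1, wild-type PND14 replicate 3 and wild-type PND0 replicate 2.

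Over the whole course from E13.5 to PND42, 40 of 41 members fell in wild type and 39 of 41 in knockouts, against 28.1% and 26.1% of all genes, with medians of -3.28 and -3.78. Birc5 fell by 4.62 (SE 0.43, n = 3 per group, adjusted p = 1.76e-13) and Cdk1 by 4.51 (SE 0.30, adjusted p = 3.06e-18) in wild type, while Mki67 fell by 3.31 and Mcm2 by 2.74. The median over mitosis members was -3.76 and over replication members -2.74. On its brightest probe set Ccnd1 ended where it began (-0.04 ± 0.17 in wild type, 0.12 in knockouts). On that probe set the wild-type libraries stood at 12.12, 11.96 and 11.88 at E13.5 and at 12.01, 12.16 and 11.66 at PND42, which overlap. Dimmer Ccnd1 probe sets gave -0.33 (limma adjusted p = 0.177) and -0.44 (adjusted p = 0.0285) in wild type, so the probe sets disagreed. Of 15 inhibitor and retinoblastoma family genes 9 rose and 3 fell in wild type over this course, against 25.6% and 28.1% of all genes, with Cdkn2b at 5.87, Cdkn2a at 2.56 and Cdkn1c, the gene of p57, at -3.38. The genotypes' changes over the course were called different in 0 members by limma, with 1 at an unadjusted p under 0.05, against 3.23% of all genes higher and 1.3% lower.

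On the brightest probe sets, the smallest ranges over wild-type group means were those of Ccnd1 (1.10), Foxm1 (1.36), Fen1 (1.52), Pcna, Ccnd2 (1.84) and E2f1 (1.91). For Foxm1, Fen1 and E2f1 the size depended on the probe set. From E13.5 to PND42 in wild type Foxm1 changed by -1.24 on its brightest probe set and by -2.97, -3.28 and -0.03 on dimmer ones. Fen1 changed by -1.36 on its brightest and by -2.53 on its dimmer probe set. E2f1 changed by -1.35 on its brightest and by -0.40 and -0.28 on dimmer ones. The G1 cyclins Ccnd1 and Ccnd2 are switched on by growth signals in many cells that are not in S phase. All 7 Ccnd2 probe sets fell from E15.5 to E17.5 in wild type and rose from PND1 to PND4, and 4 of them were called higher in knockouts at E18.5. Of the 60 further probe sets of members, 33 fell from E15.5 to E17.5, 39 rose from PND1 to PND4 and 43 fell from E13.5 to PND42 in wild type.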

How the data were processed

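Each of the 66 samples was 1 Affymetrix array of lung RNA. The deposited table holds linear intensity values per probe set, made by the authors with GCOS per the submitters' processing notes, and the sources used here give neither algorithm nor version nor scaling. The 42 arrays outside PND1 to PND4 had a trimmed mean of 500, and the 24 others 171.7 to 307.1. Here the values were quantile normalized and taken as log2(value + 16). Of 45101 probe sets, 64 controls were left out of the tests, 34945 had 1 gene symbol, 932 several and 9160 none. Groups came from the sample labels. Differences were tested with limma 3.58.1 in R 4.3.3 (cell means of 22 groups, eBayes with trend, residual df 44, Benjamini-Hochberg adjustment), a procedure tested on simulated data. Members, gene lists and markers were chosen with earlier results of these data known, so counts over them are descriptions. Values per sample were given for Mki67, Mcm2 and, at each age with calls, members with the largest changes per role, and other list genes were named by the 3 largest differences at PND14 and in the average. Other genes named outside the member list, at E18.5, PND0 and PND3 and in age steps, were chosen after their values were seen. Alternatives were other scalings, pseudocounts, a filter on dim probe sets, array weights, a replicate block, the second probe set, smaller fits and leaving out each library.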

Additional observations from a re-analysis of the deposited data

Results flagged for a closer look

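The knockout difference depended on age in 37 of 41 cell cycle genes (limma F test), against 35.1% of all genes. The count was 33 to 38 when 1 library was left out. The ages tested include PND14, where 31 members were called with all libraries and 2 without wild-type replicate 2. They also include the late fetal knockout groups, and whether the labels of those groups were exchanged was not tested.

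The change from E17.5 to E18.5 differed between the genotypes in 25 genes, higher in knockouts in each, against 5.64% of all genes. The change from E18.5 to PND0 differed in 35 genes, lower in knockouts in each, against 10.1%. These counts were 7 to 33 and 19 to 36 when 1 library was left out. Both steps share the E18.5 libraries. Ccne2 was the 1 gene whose change from PND2 to PND3 differed, lower in knockouts, against 1.13% of all genes. It was also the 1 gene whose change from PND3 to PND4 differed, higher in knockouts, against 0.649%. Both Ccne2 calls were lost when single libraries were left out.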

How the results depend on the processing

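With 3 libraries per group, counts of called members moved with single libraries, and the cause of each change below was not tested. Of 621 values of named genes under an alternative, 542 kept direction and side of the threshold, 79 lost the call and 0 reversed. With deposited values not normalized further, 29 members were called at PND3, 8 in the average over ages, 4 from E17.5 to E18.5 and 14 from PND3 to PND4 in knockouts. With array medians subtracted the counts were 0 at E17.5, 2 (PND2 to PND3) and 17 (PND0 to PND14) in wild type, 2 (E17.5 to E18.5), 15 (PND1 to PND2) and 18 (PND3 to PND4) in knockouts, and 0 for the step difference from PND3 to PND4. Arrays scaled to a trimmed mean of 500 gave 5 in the average and 0 for the step difference from PND2 to PND3.

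A pseudocount of 1 gave 1 at PND42, 4 from PND14 to PND42 in knockouts and 0 for the step difference from PND2 to PND3. A pseudocount of 64 gave 2 (E13.5 to E15.5) and 1 (E17.5 to E18.5) in wild type, 1 from PND14 to PND42 in knockouts and 1 for the step difference from PND1 to PND2. A filter that kept 29541 probe sets and all 41 members gave 2 at PND1, 11 at PND3, 5 in the average, 2 (E13.5 to E15.5), 1 (E17.5 to E18.5) and 2 (PND2 to PND3) in wild type, 11 (E17.5 to E18.5) and 1 (PND2 to PND3) in knockouts, and 1 for the step difference from PND1 to PND2.

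Array weights gave 2 at E17.5, 16 at PND0, 2 at PND1, 1 at PND2, 31 at PND3, 2 at PND42 and 7 in the average. In wild-type steps they gave 2 (E13.5 to E15.5), 24 (E17.5 to E18.5), 19 (E18.5 to PND0), 15 (PND2 to PND3) and 2 (PND0 to PND14), and in knockout steps 2 (E13.5 to E15.5), 35 (E17.5 to E18.5), 2 (PND2 to PND3) and 4 (PND14 to PND42). Step differences were then 1 (E15.5 to E17.5), 14 (PND2 to PND3) and 11 (PND3 to PND4), and each comparison across late fetal ages gave 1.

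With only the groups compared in the fit, counts were 4 at E17.5, 23 at PND3, 0 at PND14 and 1 at PND42. Wild-type steps gave 3 (E13.5 to E15.5), 1 (E18.5 to PND0), 0 (PND0 to PND14) and 0 (PND14 to PND42), knockout steps 3 (E13.5 to E15.5), 33 (E17.5 to E18.5), 0 (PND1 to PND2) and 7 (PND14 to PND42), and step differences 6 (E15.5 to E17.5), 0 (PND2 to PND3) and 14 (PND3 to PND4). The second probe set gave 2 from PND2 to PND3 in wild type, 5 from PND14 to PND42 in knockouts and 1 for that step's difference, and mitosis minus replication changes of -0.57, -0.37, 0.53 and 0.66. Chosen after seeing the data, the average called 1 without PND14, 16 without E17.5 and E18.5, and 1 over the 7 ages outside PND1 to PND4. In the 150-base window CCAAT and CHR-type letters occurred together in 0% of replication members, 31.2% of mitosis members and 2.43% of all promoters. CHR-type letters occurred in 31.2% of mitosis members and 9.7% of all promoters.

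Leaving out each library in turn gave 0 to 1 at E17.5, PND1 and PND2, 5 to 34 at E18.5, 2 to 6 at PND0, 1 to 15 at PND3, 2 to 37 at PND14 and 2 to 8 in the average. Wild-type steps gave 1 to 2 (E13.5 to E15.5), 19 to 26 (E15.5 to E17.5), 0 to 2 (E17.5 to E18.5), 1 to 8 (E18.5 to PND0), 10 to 26 (PND1 to PND2), 2 to 29 (PND0 to PND14) and 19 to 38 (PND14 to PND42). Knockout steps gave 0 to 1 (E13.5 to E15.5), 1 to 6 (E17.5 to E18.5), 3 to 34 (PND1 to PND2), 0 to 5 (PND2 to PND3), 6 to 31 (PND3 to PND4), 3 to 6 (PND0 to PND14) and 1 to 3 (PND14 to PND42). Step differences gave 7 to 33 (E17.5 to E18.5), 19 to 36 (E18.5 to PND0), 0 to 1 (PND1 to PND2), 0 to 11 (PND2 to PND3), 0 to 1 (PND3 to PND4), 0 to 11 (PND0 to PND14) and 0 to 17 (PND14 to PND42).

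With the replicate number as a block, 26 members were called at E18.5, 5 at PND0, 7 at PND3 and 30 at PND14. Same-numbered libraries of an age deviated together with a correlation above 0.1 in 1 of 33 pairs and below 0 in 16, so the numbers do not pair the samples.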
